A study of Mus musculus with 16 samples.

Results

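*Cirbp* and *Rbm3* were followed in 16 RNA-seq libraries of whole mouse hypothalamus. They encode the cold-inducible RNA-binding proteins CIRBP and RBM3 and were picked by symbol, as 2 of the 55401 genes with values and 2 of the 15808 genes that were tested. The 4 groups, of 4 mice each, were ASIC1a-/- at ZT13, WT at ZT13, ASIC1a-/- at ZT1 and WT at ZT1. ZT counts the hours since lights on, so ZT1 falls early in the light phase and ZT13 early in the dark phase, when mice are active. All were male C57BL/6 mice aged 3 months in a light-dark cycle, bred from heterozygous parents, and the knockouts lacked the acid-sensing ion channel subunit ASIC1a in every tissue since before birth. No mouse gave more than 1 library, so ZT13 and ZT1 were compared between different animals. No body temperature of these mice was analysed here. From mice with an implanted sensor, the paper reports that both genotypes were warmer in their active period. It also reports that ASIC1a-/- mice were cooler than WT mice for part of the dark phase, at hours later than ZT13.

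CIRBP and RBM3 are small proteins with a single RNA recognition motif and a glycine-rich tail. Mild cooling raises both in many mammalian cells and warming lowers them, which makes their mRNAs a classical readout of cell temperature. They bind mRNAs and affect splicing, polyadenylation, stability and translation. CIRBP is known to sustain the amplitude of the circadian clock in cultured mouse cells, and RBM3 to protect synapses in cooled mice.

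*Cirbp* (ENSMUSG00000045193) lies on the plus strand at chr10:80165985-80172786 and *Rbm3* (ENSMUSG00000031167) on the minus strand at chrX:8138975-8145880 (GRCm38). The deposited files list 7 transcripts of *Cirbp*, of 376 to 1321 bp, and 11 of *Rbm3*, of 721 to 2792 bp, and the annotation holds the same ones. Both sets include transcripts with a retained intron or marked for nonsense-mediated decay, as well as protein-coding ones. The sequence upstream of *Cirbp* is shown because both genes moved together with time and an octamer named the cold response element was described in this promoter. The stretch is chr10:80167589-80167777 (RefSeq promoter window, GRCm38.p6, plus strand, 189 bases). It ends at the base before the start of the protein-coding transcript Cirbp-202 and lies in the first intron of Cirbp-207, outside every annotated exon. Capitals mark the cold response element.
*Cirbp* promoter: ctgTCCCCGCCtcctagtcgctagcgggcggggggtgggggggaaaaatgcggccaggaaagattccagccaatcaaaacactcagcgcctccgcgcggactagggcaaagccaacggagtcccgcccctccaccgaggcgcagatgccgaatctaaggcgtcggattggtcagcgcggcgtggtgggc

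The search covered both strands of 6 motifs. The cold response element, TCCCCGCC, occurred 1 time, starting 186 bases upstream of Cirbp-202, and 2.86% of the 32851 promoter windows held it in a stretch of the same length. The CCAAT box (CCAAT) occurred on each strand, and 26.5% of windows held it. The GC box (GGGCGG) did too, and 22.6% of windows held it. No match to the E-box CACGTG (3.99% of windows), the cAMP response element TGACGTCA (0.685%) or the heat shock element GAANNTTC (4.89%) was found, and no matches overlapped. Of the 2 genes, *Cirbp* matched 2 promoter windows of the table, of which the upstream one was used, and *Rbm3* none.

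The totals of the expected counts were 34888522 to 42326259 per library. The targeted gene matched the labels in counts: *Asic1* had 64.9 to 71.9 CPM (counts scaled to the size of the library) in the 8 ASIC1a-/- libraries, against 97.1 to 106 CPM in the 8 WT libraries. In TPM, which also divides by transcript length, the order was turned, with 72.8 to 84.0 TPM in ASIC1a-/- and 60.8 to 71.1 TPM in WT. The length that RSEM, the authors' tool for transcript abundance, assigned to *Asic1* was 1766 to 1862 bp in ASIC1a-/- and 2980 to 3382 bp in WT. The summed level of 5 meningeal markers stood apart in 2 libraries, at 75.2 CPM in ASIC1a-/- ZT13 replicate 2 and 131.5 CPM in ASIC1a-/- ZT1 replicate 4, against 23.71 to 45.85 CPM in the other 14. Hypothalamic markers summed to 1116 to 1539 CPM in every library, with *Kiss1* at 0 in at least 1 library of each group. Most of this sum was *Pmch*, with group means of 944 to 1044 CPM. Thalamic markers summed to 65.9 to 116 CPM in WT ZT1, against 61.9 to 82 CPM in the other groups.

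*Cirbp* and *Rbm3* were among the more abundant mRNAs of the hypothalamus. On the TPM scale, which allows genes to be compared, *Cirbp* averaged 137 TPM over all libraries, above 92.4% of the tested genes, and *Rbm3* 132 TPM, above 92.1%. The count per library was 1962 to 3027 for *Cirbp* and 1827 to 4163 for *Rbm3*. Counting error alone was then 1.82% to 2.26% of a *Cirbp* value and 1.55% to 2.34% of an *Rbm3* value. The spread between mice was near this in WT at ZT1, where the SD was 2.47% of the mean for *Cirbp* and 2.91% for *Rbm3*. It was larger in the other groups, between 5.48% and 11.5%.

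The main pattern was the time of day: both genes were higher at ZT13 than at ZT1, *Rbm3* by 1.74-fold and *Cirbp* by 1.2-fold over both genotypes. Of all tested genes, 14.3% were called higher and 12.1% lower at ZT13 in this comparison. *Rbm3* had 98.9, 89.2, 98.0 and 88.4 CPM in ASIC1a-/- mice at ZT13 and 92.5, 98.4, 102 and 90.7 CPM in WT mice at ZT13. At ZT1 it had 64.4, 51.2, 52.3 and 52.1 CPM in ASIC1a-/- mice and 55.8, 52.3, 54.6 and 53.0 CPM in WT mice. All 8 mice at ZT13 were above all 8 at ZT1, and at ZT1 the first ASIC1a-/- mouse stood above the other 7. The share of all tested genes that separate the times in this way was not counted. The group means were 93.6 ± 5.63 CPM in ASIC1a-/- ZT13, 95.9 ± 5.26 in WT ZT13, 55.0 ± 6.30 in ASIC1a-/- ZT1 and 53.9 ± 1.57 in WT ZT1 (SD, n = 4 each). In descending order of the means these were WT ZT13, ASIC1a-/- ZT13, ASIC1a-/- ZT1 and WT ZT1, and within each time the 2 groups overlapped.

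*Cirbp* had 76.8, 65.4, 71.3 and 68.4 CPM in ASIC1a-/- mice at ZT13 and 69.3, 80.1, 72.4 and 68.2 CPM in WT mice at ZT13. At ZT1 it had 65.1, 54.9, 60.15 and 59.1 CPM in ASIC1a-/- mice and 59.2, 58.4, 60.9 and 57.4 CPM in WT mice. The times again did not overlap, but only narrowly, since the lowest mouse at ZT13 (65.4 CPM) and the highest at ZT1 (65.1 CPM), both ASIC1a-/-, lay next to each other. Before scaling to library size they overlapped slightly, at 2314 to 3027 expected counts at ZT13 and 1962 to 2325 at ZT1. For *Cirbp* too, the share of all tested genes that separate the times was not counted. The means were 70.5 ± 4.86 CPM in ASIC1a-/- ZT13, 72.5 ± 5.4 in WT ZT13, 59.8 ± 4.15 in ASIC1a-/- ZT1 and 59.0 ± 1.45 in WT ZT1 (SD, n = 4 each). The order of the means was the same as for *Rbm3*, and the genotypes overlapped at both times. In bulk tissue, more cells that express a gene and more mRNA per cell cannot be told apart.

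**Figure D1:**
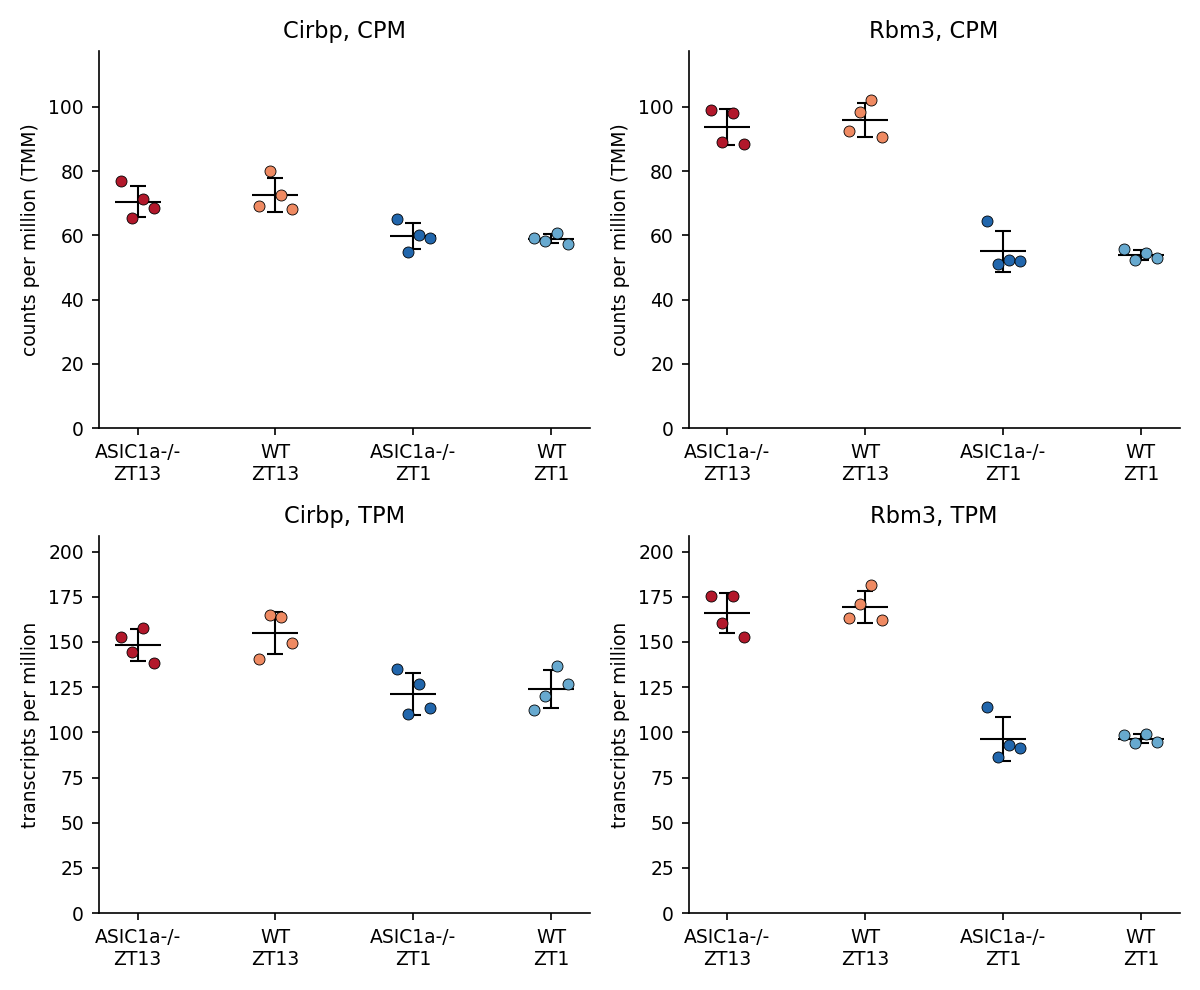
Cirbp (left) and Rbm3 (right) in each library, in CPM after TMM scaling (top) and in TPM (bottom), in the 4 groups of 4 mice, with the group mean and SD as bars. All libraries at ZT13 lie above those at ZT1, at 88.4 to 102 against 51.2 to 64.4 CPM for Rbm3 and at 65.4 to 80.1 against 54.9 to 65.1 CPM for Cirbp.

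Both genes passed the test between times in each genotype (edgeR, adjusted p under 0.05), where 11.3% of the tested genes were called in ASIC1a-/- mice (6.72% higher and 4.62% lower) and 13.3% in WT mice (7.52% higher and 5.76% lower). For *Rbm3* the log2 fold change of ZT13 over ZT1 was 0.77 (SE 0.0624, adjusted p = 5.2e-07) in ASIC1a-/- and 0.83 (SE 0.0625, adjusted p = 2.2e-07) in WT. For *Cirbp* it was 0.24 (SE 0.0566, adjusted p = 0.0117) in ASIC1a-/- and 0.30 (SE 0.0568, adjusted p = 0.00228) in WT. Averaged over both genotypes it was 0.80 for *Rbm3* (95% interval 0.71 to 0.89, adjusted p = 1.1e-09) and 0.27 for *Cirbp* (0.18 to 0.35, adjusted p = 0.000102). In that comparison 26.4% of all genes were called in either direction, so a call by itself was common.

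The 2 genes differed in how far they stood out. *Rbm3* ranked 9 by p among the 15808 tested genes and 50 by the size of its rise, and its fold change was above that of 98.7% of the genes called higher at ZT13. *Cirbp* ranked 476 by p and was above 84.4% of them. The rise was as large without the 2 libraries high in meningeal markers, at 0.80 for *Rbm3* and 0.28 for *Cirbp* on the log2 scale.

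No difference between the genotypes was found for either gene. Averaged over both times, the log2 fold change of ASIC1a-/- over WT was -0.010 for *Cirbp* (95% interval -0.094 to 0.074, adjusted p = 0.979) and -0.003 for *Rbm3* (-0.096 to 0.090, adjusted p = 0.993), in a comparison that called 0.0633% of genes (0.0506% higher and 0.0127% lower). As a fold, the intervals run from 0.937 to 1.05 for *Cirbp* and from 0.936 to 1.06 for *Rbm3*. At ZT13, where 0.101% of genes were called (0.0822% higher and 0.019% lower), the values were -0.041 (-0.159 to 0.077) for *Cirbp* and -0.035 (-0.162 to 0.093) for *Rbm3*. At ZT1, where 0.0127% were called, they were 0.021 (-0.099 to 0.141) and 0.029 (-0.105 to 0.162) for the same genes. With edgeR, 0 of the 2 genes passed in any of these comparisons, 0 had an unadjusted p under 0.05, and DESeq2 called 0.

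The day-night difference was likewise not found to depend on ASIC1a. The interaction, that is the log2 rise in ASIC1a-/- minus that in WT, was -0.062 (-0.230 to 0.107) for *Cirbp* and -0.063 (-0.248 to 0.122) for *Rbm3*, each with an adjusted p of 0.9997 from edgeR, and 0.019% of genes were called. Both intervals include 0, but they also include a rise in ASIC1a-/- mice that is smaller than in WT mice by 0.23 for *Cirbp* or 0.25 for *Rbm3*, the first close to the whole rise of *Cirbp*. The comparisons share groups, so they are not independent of each other.

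**Figure D2:**
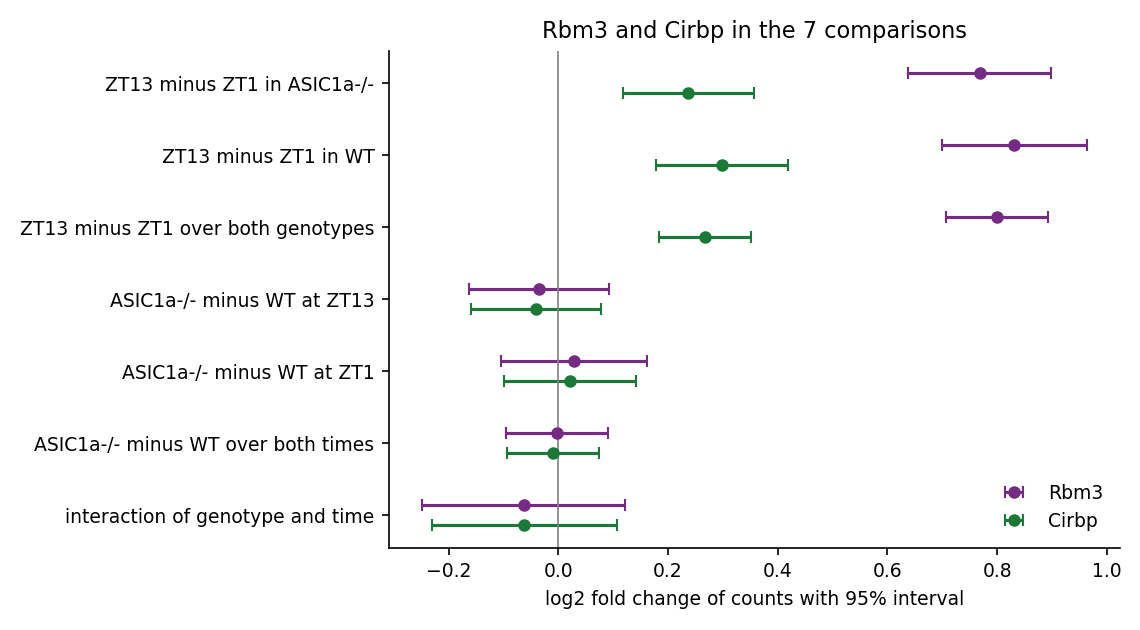
Log2 fold change (dot) and 95% interval (bar) of Rbm3 and Cirbp in the 7 comparisons of the edgeR fit. Only the differences between ZT13 and ZT1 lie away from 0, at 0.80 for Rbm3 and 0.27 for Cirbp over both genotypes, while every comparison of genotypes and the interaction include 0.

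Since *Rbm3* rose more, the balance of the 2 mRNAs changed with time. The ratio of *Rbm3* to *Cirbp* counts within a library is free of the scaling between libraries. It was 1.29, 1.36, 1.38 and 1.29 in ASIC1a-/- mice at ZT13 and 1.34, 1.23, 1.41 and 1.33 in WT mice at ZT13. At ZT1 it was 0.990, 0.931, 0.870 and 0.881 in ASIC1a-/- mice and 0.942, 0.896, 0.897 and 0.922 in WT mice. The times did not overlap, and the ratio was above 1 in every mouse at ZT13 and below 1 in every mouse at ZT1.

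Over both genotypes the ratio was 1.45-fold higher at ZT13 (difference of 0.54 on the log2 scale, exact permutation test within genotypes, two-sided p = 0.000408, adjusted p = 0.00245 over 6 comparisons). The p is the smallest the design allows. The difference was 0.54 in ASIC1a-/- mice and 0.53 in WT mice, each with p = 0.0286, the smallest that an exact test of 4 against 4 can give, and an adjusted p of 0.0571. Between genotypes the log2 ratio differed by 0.0038 at ZT1 and 0.0055 at ZT13 (exact permutation test, p = 0.943 each).

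On the TPM scale, which corrects for transcript length, the order of the 2 genes also turned between the times. *Rbm3* had 166 ± 11.2 TPM in ASIC1a-/- and 169 ± 8.93 TPM in WT at ZT13, against 148 ± 8.81 and 155 ± 11.7 TPM for *Cirbp* in the same groups. At ZT1, *Rbm3* had 96.4 ± 12.1 TPM in ASIC1a-/- and 96.5 ± 2.52 TPM in WT, against 121 ± 11.6 and 124 ± 10.3 TPM for *Cirbp* (SD, n = 4 each). The TPM ratio of *Rbm3* to *Cirbp* was 1.03 to 1.16 in the 8 mice at ZT13 and 0.725 to 0.876 in the 8 at ZT1. Together the 2 mRNAs made up 314 ± 19.9 TPM in ASIC1a-/- and 324 ± 19.5 TPM in WT at ZT13, and 218 ± 23.0 and 221 ± 11.1 TPM in these genotypes at ZT1.

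**Figure D3:**
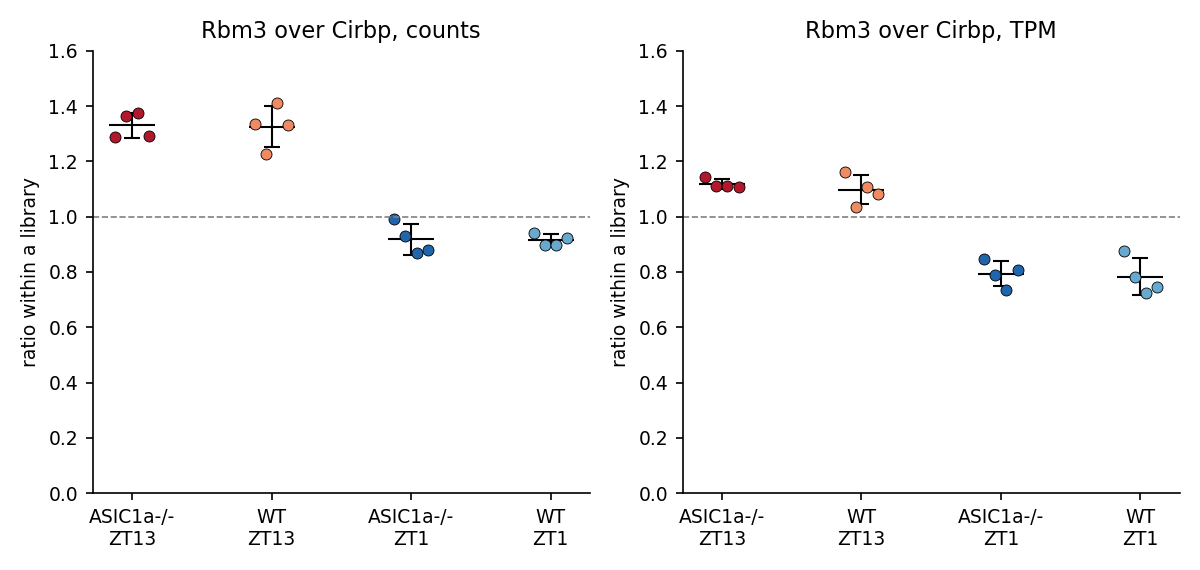
Ratio of Rbm3 to Cirbp within each library, from counts (left) and from TPM (right), in the 4 groups of 4 mice, with the group mean and SD as bars and a dashed line at 1. Every library at ZT13 is above 1 (1.23 to 1.41 in counts) and every library at ZT1 below it (0.87 to 0.99).

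The transcript length that RSEM assigns to a gene is weighted by transcript abundance and so reports on the mix of transcripts. For *Cirbp* it was 1125, 1043, 1027 and 1093 bp in ASIC1a-/- ZT13, 1089, 1066, 1001 and 1055 bp in WT ZT13, 1066, 1071, 1071 and 1133 bp in ASIC1a-/- ZT1 and 1156, 1086, 1014 and 1024 bp in WT ZT1. All 4 groups overlapped. The mean difference was 17.2 bp between genotypes over both times and -15.1 bp between ZT13 and ZT1 over both genotypes, and no comparison passed (lowest adjusted p = 0.686 over 12 comparisons of both genes, exact permutation tests). The length of *Rbm3* was far less variable. It was 1247, 1247, 1237 and 1252 bp in ASIC1a-/- ZT13, 1231, 1237, 1235 and 1262 bp in WT ZT13, 1222, 1239, 1240 and 1224 bp in ASIC1a-/- ZT1 and 1232, 1221, 1219 and 1233 bp in WT ZT1. Over both genotypes it was 14.6 bp longer at ZT13, or 1.19% of its mean at ZT1, with an exact permutation p of 0.00653 that did not pass the adjustment (adjusted p = 0.0784). When ASIC1a-/- ZT1 replicate 2 or 3, WT ZT13 replicate 1 or ASIC1a-/- ZT13 replicate 3 was left out, the adjusted p lay between 0.0327 and 0.0457. Those values were adjusted over fewer than 12 comparisons, only the ones that hold the omitted library. They therefore cannot be set directly against 0.0784.

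Within a time and genotype, mice with more *Cirbp* also tended to have more *Rbm3*. ZT13 and ZT1 form separate clusters, so no value over all 16 libraries is given as a relation. After subtracting the group means of log2 CPM, Pearson's r was 0.76 (adjusted p = 0.0117) and Spearman's rho 0.78 (adjusted p = 0.0157) by permutation within groups, over 3 relations. Without the 2 libraries farthest in *Cirbp*, r was 0.83. Among the 8 mice at ZT13, r was 0.76 (exact permutation, adjusted p = 0.0274) and rho 0.83 (exact permutation, adjusted p = 0.0231). Without the 2 farthest, r was 0.89 (exact permutation, adjusted p = 0.0229), while rho, at 0.83, did not pass (exact permutation, adjusted p = 0.0875). Among the 8 mice at ZT1, r was 0.85 (exact permutation, adjusted p = 0.0117) and rho 0.74 (exact permutation, adjusted p = 0.0458). That relation rested on the 2 mice farthest in *Cirbp*: without them r was 0.29 (exact permutation, p = 0.554).

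**Figure D4:**
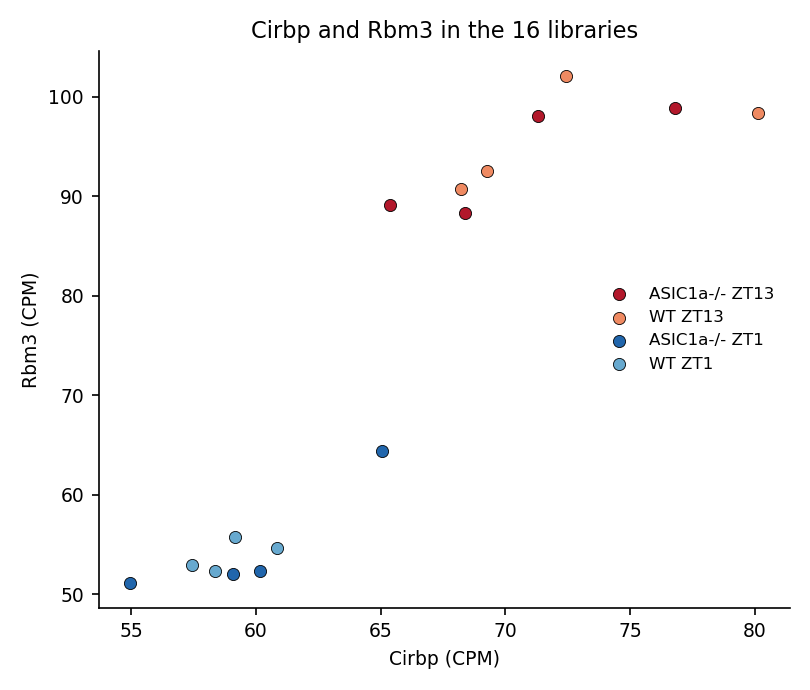
Rbm3 against Cirbp in CPM, with a point for each of the 16 libraries in the colour of its group. The 8 libraries at ZT13 and the 8 at ZT1 form separate clusters, and at ZT1 the library highest in both genes (65.1 CPM of Cirbp and 64.4 CPM of Rbm3) stands apart from the other 7.

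Other genes were ranked by how closely their log2 CPM followed each gene over the 16 libraries, among 12083 genes with a mean of at least 5 CPM. All of these genes share the difference between times and the libraries, so r is a description only, and the r that remains after subtracting the group means is given beside it. *Rbm3* was the gene most like *Cirbp* (r = 0.92). It was followed by *Deaf1*, a transcription factor (0.92), *Taok2*, a kinase (0.91), *Wdr54*, a WD-repeat protein (0.91) and *Jakmip1*, a microtubule-associated protein of neurons (0.90). The genes most opposite to *Cirbp* were *Dpp8*, a cytosolic peptidase (-0.96), *Gabra2*, a GABA-A receptor subunit (-0.94), *Phkg1*, a phosphorylase kinase subunit (-0.94), *Caprin1*, an RNA-binding protein of stress granules (-0.93), and *Hsph1*, a co-chaperone of the heat-shock response (-0.93). After subtracting the group means, the r with *Cirbp* was 0.76 for *Rbm3*, 0.79 for *Deaf1*, 0.78 for *Wdr54*, 0.65 for *Taok2* and 0.62 for *Jakmip1*. Of the opposite genes it was -0.91 for *Gabra2*, -0.82 for *Dpp8*, -0.77 for *Phkg1*, -0.75 for *Hsph1* and -0.73 for *Caprin1*. The link of *Cirbp* to *Rbm3* within groups was thus not the strongest of these.

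Among the genes most like *Rbm3*, *Cirbp* came at rank 37 (r = 0.92). The nearest was *Etnppl*, an enzyme of phosphoethanolamine breakdown in astrocytes (r = 0.97, log2 fold change of ZT13 over ZT1 0.47). After it came *Sfrp5*, a secreted Wnt inhibitor (0.96), *Plin4*, a lipid-droplet protein (0.96), *Mfsd2a*, a lipid transporter of brain endothelium (0.96), and *Camk1g*, a calcium-dependent kinase (0.96). The most opposite was *Fabp7*, a fatty acid-binding protein of astrocytes, with 14.1 to 17.6 CPM at ZT13 and 40.9 to 48.5 CPM at ZT1 (r = -0.98). *Calr*, a chaperone of the endoplasmic reticulum, *Hexa*, a lysosomal enzyme, and *Lman2l*, a cargo lectin, had r = -0.98, and the splicing factor *Hnrnpc* -0.97. Within groups the r of these 10 genes with *Rbm3* lay between -0.60 (*Fabp7*) and 0.40 (*Camk1g*), and that of *Cirbp* was 0.76. The 10 were picked by r over all 16 libraries, which holds the difference between times, and no gene was ranked by its r within groups. Whether 0.76 is high among all genes is therefore not shown.

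Neighbours on the chromosomes were checked because reads of adjoining or overlapping genes can be counted for each other. *Rbm3* is overlapped by the antisense gene *Rbm3os*, which had 1 to 16 counts per library and was not tested. No source states that reads were counted by strand, so reads of the shared stretch cannot be told apart. A processed copy, *Rbm3-ps*, had 0 to 3.79 expected counts. The neighbours of *Rbm3* differed little with time, by -0.02 for *Wdr13* (adjusted p = 0.536) and 0.05 for *Tbc1d25* (adjusted p = 0.354) on the log2 scale. Next to *Cirbp*, *Midn*, 7617 bp before it, was higher at ZT13 by 0.23 (adjusted p = 0.000102), and *1600002K03Rik*, 158 bp after it, was lower (-0.37, adjusted p = 0.0373), with group means of only 1.78 to 2.47 CPM.

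The 6 gene lists below were set beside *Cirbp* and *Rbm3* because they hold the pathways to which these proteins are tied, and each is given by its counts for ZT13 against ZT1 over both genotypes, next to the 14.3% higher and 12.1% lower among all tested genes. The heat-shock response is known to be induced by warming. Of its 22 members, 14 were lower at ZT13 and 1 higher, with a median log2 fold change of -0.116, against -0.005 for all genes. *Stip1*, a chaperone adaptor, had 247 and 241 CPM in ASIC1a-/- and WT at ZT13, against 297 and 294 CPM in these genotypes at ZT1 (-0.28, adjusted p = 9.7e-07). *Ahsa1*, an HSP90 activator (-0.17), *Hspa8*, the constitutive HSP70 (-0.16), and *Hsph1* (-0.24) were lower too. The exception was *Dnajb1*, an HSP40 co-chaperone, at 79.4 and 74.7 CPM in ASIC1a-/- and WT at ZT13 against 65.0 and 56.3 CPM at ZT1 (0.35, adjusted p = 0.000257). The inducible *Hspa1a* (0.14, adjusted p = 0.406) and *Hspa1b* (0.25, adjusted p = 0.413) did not pass.

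Of 20 genes of temperature-dependent splicing and of the induction of *Cirbp* or *Rbm3*, 7 were higher at ZT13 and 1 lower, with a median of 0.055. *Clk1*, a kinase of splicing factors whose activity is temperature-sensitive, had 121 and 115 CPM in ASIC1a-/- and WT at ZT13, against 87.8 and 94.1 CPM at ZT1 (0.37, adjusted p = 0.000503). *Srsf10* (0.15), *Srsf2* (0.16) and *Srsf4* (0.08), splicing factors of the SR family, were higher as well. *Sp1*, a transcription factor tied to *Cirbp* induction by cold, differed by 0.02 (adjusted p = 0.719). *Trpv4*, a warm-sensitive channel tied to the induction of both genes, differed by 0.04 (adjusted p = 0.841).

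Of 4 known targets of the proteins, *Clock*, *Rtn3*, *Txn1* and *Rpa2*, 0 passed in edgeR, next to 26.4% of all tested genes. An unadjusted p under 0.05 from edgeR was found for 0 of the 4, next to 37.9% of all tested genes, and DESeq2 called 0. The translation of these targets was not measured. The log2 fold changes of their mRNAs were 0.02 for *Clock*, which CIRBP binds, -0.02 for *Rtn3*, whose translation RBM3 raises in mice, 0.02 for *Txn1* and 0.05 for *Rpa2*, the last 2 known as CIRBP targets from human cells. Of 19 clock genes, 13 were higher and 1 lower. *Per2* (0.55, adjusted p = 5.8e-07), *Dbp* (0.44, adjusted p = 1.8e-07) and *Nr1d2* (0.22, adjusted p = 1.4e-06) were higher at ZT13 and *Arntl*, which encodes the clock activator BMAL1, lower (-0.27, adjusted p = 1.8e-05). No clock gene of the list had a fold change as large as that of *Rbm3*.

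Of 16 related proteins with RNA recognition motifs, 5 were higher and 1 lower. *Rbmx*, a splicing factor that also has a single RNA recognition motif, had 0.18 (adjusted p = 0.000462), *Hnrnpdl* 0.17 (adjusted p = 0.000249), *Hnrnpa1* 0.08 (adjusted p = 0.00346) and *Rbm14* -0.16 (adjusted p = 0.0117), all below *Cirbp* and *Rbm3* in size. Of the 14 thermosensory channels and thermoregulatory signals, 12 were tested and 0 passed in edgeR or DESeq2 over both genotypes, with 2 of 12 at an unadjusted p under 0.05, next to 37.9% of all tested genes. In WT alone, where edgeR called 5.76% of all tested genes lower, *Trpm2*, a warm-sensing channel, was called lower at ZT13 by both tools (-0.13, adjusted p = 0.0438 from edgeR). In ASIC1a-/- it differed by -0.02 (adjusted p = 0.77 from edgeR), and 0 of the 12 passed in the interaction by edgeR. Over both genotypes those with the smallest p were *Trpm2* (-0.08, adjusted p = 0.061), *Trpm4* (0.12, adjusted p = 0.112), *Trpa1* (-0.19, adjusted p = 0.372) and *Adcyap1*, the gene of the peptide PACAP (0.02, adjusted p = 0.529). Between ASIC1a-/- and WT over both times, 0 of the 91 tested members of these 6 lists passed in edgeR, and 0 in DESeq2. Of all tested genes, 6.8% had an unadjusted p under 0.05 in this comparison. Of the heat-shock list, 3 of 22 had an unadjusted p under 0.05, among them *Cryab*, a small heat-shock protein (0.13, adjusted p = 0.704), and *Dnajb1* (0.15, adjusted p = 0.721). Of the clock list these were 3 of 19, among them *Nr1d1* (-0.11, adjusted p = 0.704) and *Dbp* (-0.09, adjusted p = 0.721), and of the related proteins 5 of 16, among them *Hnrnpa3* (-0.05) and *Hnrnpd* (-0.06, adjusted p = 0.721 each). The smallest p of the splicing list belonged to *Srpk1* (-0.05, adjusted p = 0.762) and *Ntrk2* (-0.03, adjusted p = 0.765), with 0 of 20 under 0.05 unadjusted. Among targets it was *Rpa2* (0.11, adjusted p = 0.721), with 1 of 4, and among thermosensory genes *Trpa1* (0.30, adjusted p = 0.731), with 1 of 12.

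**Figure D5:**
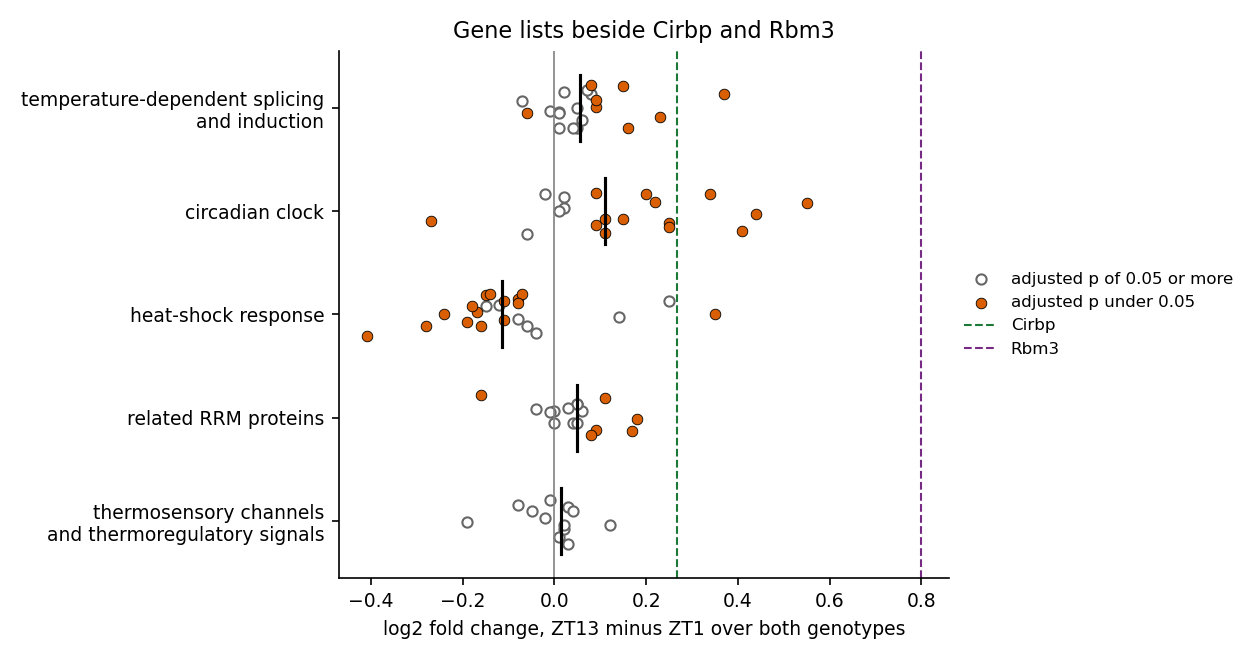
Log2 fold change of ZT13 over ZT1 over both genotypes for the tested members of 5 gene lists (dots, filled where the adjusted p was under 0.05, with the list median as a black bar) beside Cirbp (0.27) and Rbm3 (0.80) as dashed lines. Most heat-shock genes lie left of 0, with 14 of 22 called lower, and no member of any list reaches Rbm3.

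Some markers of cell types and regions differed with time. Of 59 tested markers of 14 cell types and regions, 9 were lower and 2 higher at ZT13 over both genotypes, next to 12.1% lower, 14.3% higher and 26.4% in either direction among all tested genes. The lower ones included *Cldn5* and *Tek* of 4 endothelial markers, whose sum was 83 to 105 CPM at ZT13 and 93.3 to 116 CPM at ZT1, and *Cx3cr1* and *Csf1r* of 5 microglial markers, with 134 to 146 CPM at ZT13 and 145 to 163 CPM at ZT1. The other lower ones were *Gja1* of the astrocytes (-0.16), *Mag* (-0.13) and *Cnp* (-0.20) of the oligodendrocytes, *Cspg4* of their precursors (-0.25) and *Pdgfrb* of mural cells (-0.24). The sum of 4 neuronal markers was 2177 to 2421 CPM at ZT13 and 2229 to 2454 CPM at ZT1, and that of 5 astrocyte markers 1439 to 1643 CPM at ZT13 and 1482 to 1608 CPM at ZT1. The higher ones were *Rax* of the tanycytes (0.74, adjusted p = 0.00519) and *Cga* of the anterior pituitary (3.09, adjusted p = 0.0272). In WT alone, where edgeR called 7.52% of all tested genes higher at ZT13, it called all 3 tested pituitary markers higher, and DESeq2 called 2. The log2 rise was 3.66 for *Gh*, 3.10 for *Prl* and 6.25 for *Cga*, which averaged only 0.0562 CPM in WT at ZT1. The sum of the 5 pituitary markers was 5.81 to 40.5 CPM in WT at ZT13 and 0.506 to 3.54 CPM in WT at ZT1, with *Pou1f1* and *Tshb* at 0 in at least 1 library of each group. In ASIC1a-/- mice the sum of these markers was 0.73 to 9.95 CPM at ZT13 and 4.67 to 14.1 CPM at ZT1. There 0 of the 3 were called by edgeR or DESeq2, with 1 at an unadjusted p under 0.05 from edgeR. Of all tested genes, edgeR called 11.3% in ASIC1a-/- mice, and 26.3% had an unadjusted p under 0.05. The part of these cells and regions in the rise of *Cirbp* and *Rbm3* was not tested.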

How the data were processed

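Per the labels and the methods, RNA of whole hypothalamus from 16 mice was sequenced in paired ends. The labels and the methods name different kits. The authors trimmed reads (cutadapt 1.8), aligned them to GRCm38 transcripts (STAR 2.5.3a) and estimated abundance (RSEM 1.2.31). The deposited files hold, per gene, unnormalized expected counts, TPM scaled by the authors for length and depth, and an abundance-weighted length in bp (unit other). RSEM divides reads shared by several genes, so 4.85% of counts were not whole.

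Expected counts were rounded, and 15808 genes over 1 CPM in at least 1 library were scaled by TMM and tested with edgeR 4.0.16 (quasi-likelihood F test, 4 group means, all libraries, R 4.3.3) with Benjamini-Hochberg adjustment over all tested genes, called under 0.05. Log2 CPM used a prior count of 2. Depth was 34888522 to 42326259 counts, and no pair of libraries in a group was near sampling noise (chi-square of 3.02 to 10.4 per degree of freedom over genes). No source gives a batch. Lengths and ratios were compared with two-sided exact permutation tests, stratified for averages, and relations with 100000 permutations or exactly (scipy 1.17.1). The edgeR fit was tested on simulated counts, for ZT13 minus ZT1 over both genotypes. Figures used matplotlib 3.10.9.

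Both genes and the lists were chosen with earlier results of these data known. Named genes were *Cirbp* and *Rbm3*, the 5 most alike and 5 most opposite to each, up to 4 members per list with the smallest p between times and up to 2 between genotypes, neighbours, and *Asic1*. *Hspa1a*, *Hspa1b*, *Sp1*, *Trpv4*, *Trpm2* in WT alone and the cell type markers named were added after their values were seen. Alternatives were other filters, scalings and tests (DESeq2 1.42.0, limma-voom 3.58.1), log2(TPM + 1) and log2(TPM + 0.1), unrounded counts, only the groups compared, a replicate block, each library left out, and the 2 libraries high in meningeal markers left out. The last was added for the lists after the data were seen.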

Additional observations from a re-analysis of the deposited data

Results flagged for a closer look

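*Rbm3* in ASIC1a-/- ZT1 replicate 1 stood at 64.4 CPM, far above the other 3 mice of its group (51.2 to 52.3 CPM). The same library was highest at ZT1 in *Cirbp*, at 65.1 CPM. Without it, the log2 rise of *Rbm3* from edgeR in ASIC1a-/- mice was 0.85 instead of 0.77, and that of *Cirbp* 0.28 instead of 0.24. The RSEM length of *Cirbp* in ASIC1a-/- ZT1 replicate 4 stood at 1133 bp, above 1066 to 1071 bp in the rest of its group. This is the library with the highest meningeal markers (131.5 CPM), whose part in the length was not tested. Of 28 groups of 4 examined, 2 were picked out in this way, and chance picks out about 1 in 20.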

How the results depend on the processing

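*Cirbp* and *Rbm3* kept their direction and their call between ZT13 and ZT1 under every alternative run, at 0.24 to 0.31 and 0.78 to 0.84 over both genotypes. In ASIC1a-/- mice alone the rise of *Cirbp* was 0.194 to 0.294. Its call there was closest to the threshold without ASIC1a-/- ZT13 replicate 1 (0.194, adjusted p = 0.0459 from edgeR). No alternative gave a call between genotypes or for the interaction. At ZT1 the relation of the 2 genes was weaker in log2(TPM + 1), with r = 0.67 (exact permutation, adjusted p = 0.05). The length of *Rbm3* at ZT13 minus ZT1 was 11.1 to 16.3 bp with a library left out (adjusted p 0.0327 to 0.127), and it passed without ASIC1a-/- ZT1 replicate 2 (15.9 bp) or 3 (16.1 bp), WT ZT13 replicate 1 (16.3 bp) or ASIC1a-/- ZT13 replicate 3 (16.1 bp). With a library left out, the adjustment covered only the comparisons that hold it, fewer than the 12 run on all libraries. Whether this alone gave the passes was not tested.

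Same-numbered mice of different groups did not in general deviate together (median correlation 0.0087, range -0.316 to 0.217, 4 of 24 pairs over 0.1), so the numbers were not used as pairs. These correlations cannot exclude that some mice of the same number share a source of variation. With the replicate number as a block, the rise over both genotypes was 0.80 for *Rbm3* and 0.27 for *Cirbp*, and the genes called for the interaction were 5 instead of 3.

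Counts of called genes moved by over 1.5 times under some settings. DESeq2 called 7 genes between genotypes at ZT1 (2 in edgeR), 30 at ZT13 (16), 23 over both times (10) and 13 for the interaction (3). Without the filter on low counts these were 15, 29, 20 and 17. On log2(TPM + 1) they were 1 at ZT1 and 6 over both times. Between ZT13 and ZT1 that scale called 971 in ASIC1a-/- (1792 in edgeR), 879 in WT (2099) and 2643 over both genotypes (4170), and log2(TPM + 0.1) called 969, 882 and 2654. With a library left out, the calls between times were 1162 to 1827 in ASIC1a-/- and 1320 to 2190 in WT, between genotypes at ZT1 2 to 5, and for the interaction 3 to 7. Without the libraries high in meningeal markers, 1099 were called between times in ASIC1a-/- and 6 for the interaction. The list counts were checked in 3 alternatives only, for ZT13 minus ZT1 over both genotypes, and stayed within 1.5 times.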
